A study of Homo sapiens with 12 samples.

Results

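The 10 genes described here encode the cytosolic HSP70 chaperones and their HSP110 relatives, namely HSPA1A, HSPA1B, HSPA1L, HSPA2, HSPA6, HSPA8 and the pseudogene HSPA7 of the HSP70 group, and HSPA4, HSPA4L and HSPH1 of the HSP110 group. They were chosen by gene symbol from a table of 43735 rows, in which 12 further rows carry the symbol HSPA1A, HSPA1B or HSPA1L with a copy suffix (_1 to _4). RNA was sequenced from MM1S, a glucocorticoid (GC)-sensitive human multiple myeloma cell line, and from MM1R, a GC-resistant line of the same MM1 origin. Cells of each line were untreated (UT) or treated with withaferin A (WA), a plant steroidal lactone that binds cysteines covalently, at 1 µM for 3 h. Each of the 4 groups held 3 cultures, of passage 16, 22 and 23 in MM1S and of passage 4, 6 and 7 in MM1R. Within a line, the UT and WA cultures had matching passage numbers. The tests compared group means without passage, unless a replicate block is named. No passage number occurred in both lines, and line and passage cannot be told apart. The labels call the controls untreated and name no vehicle.

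HSP70 proteins bind exposed hydrophobic stretches of unfolded or newly made proteins and release them in a cycle of ATP hydrolysis. J-domain proteins deliver the client and trigger hydrolysis, and nucleotide exchange factors, among them the HSP110 proteins and the BAG proteins, reopen the pocket. HSPA8 (HSC70) is the constitutive member, whereas HSPA1A, HSPA1B and HSPA6 are stress-inducible genes driven by heat shock factor 1 (HSF1). HSF1 binds heat shock elements, which are inverted repeats of the unit nGAAn. Plasma cells secrete large amounts of antibody, and myeloma cells are known for a high demand on protein folding.

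With WA the summed level of this family rose in both lines, and the members differed widely in their change. HSPA2 overlapped between UT and WA in MM1S, and the rows of HSPA1A and HSPA1L without a suffix had no read. The stress-inducible gene HSPA6 went from 0.894 to 1.81 CPM over the UT cultures to 316 to 5465 CPM with WA (CPM, read counts scaled to library size by TMM). The HSP110 gene HSPH1 rose 9.85-fold in MM1S and 12.3-fold in MM1R, the constitutive gene HSPA8 rose 3.44-fold in MM1S and 3.37-fold in MM1R, and HSPA4 rose 2.56-fold and 2.52-fold (ratios of the mean CPM of 3 cultures). Summed over all member rows, the family stood at 3434 ± 29.3 CPM (SD, n = 3) in UT and 14221 ± 1355 CPM (SD, n = 3) in WA for MM1S. The corresponding levels in MM1R were 3284 ± 480 CPM and 15669 ± 3736 CPM (SD, n = 3). The family thus took 0.284% to 0.360% of the reads in the 6 UT cultures and 1.29% to 1.84% in the 6 WA cultures.

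The libraries held between 17625110 and 19368343 counted reads. All 8 plasma cell markers checked (SDC1, TNFRSF17, IRF4, PRDM1, XBP1, CD38, MZB1 and SLAMF7) lay between 41.2 and 1658 CPM. The fibroblast marker COL1A2 had no read, and MS4A1, PAX5, CD3D, LYZ and CD14 had at most 7 reads in a library. Of the 8 plasma cell markers, 4 were below the UT level in every pair of cultures given WA and 2 stood above it, and their summed level was 4986 to 6290 CPM in UT and 4679 to 5471 CPM with WA. IRF4, a transcription factor that myeloma cells depend on, went from 800 to 1227 CPM over the UT cultures to 488 to 778 CPM with WA. The T cell marker CD3E lay at 3.26 to 11.6 CPM in UT and 4.76 to 9.22 CPM with WA. The fibroblast marker COL1A1 was higher with WA in all 6 pairs, at 0.447 to 2.34 CPM in UT and 2.29 to 17.9 CPM with WA, beside its partner COL1A2 without a read. The part of these shifts in the results below was not tested. In such bulk RNA, a change in the number of cells and a change in RNA per cell cannot be told apart.

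Promoter sequences were examined because several members are known targets of HSF1. RefSeq promoter windows of 250 bases upstream of the start were found for 9 of the 10 genes (11 windows, all matched once in GRCh37). A repeat of 2 inverted units, GAANNTTC or TTCNNGAA (each reads the same on both strands), was present in at least 1 window of 6 genes, HSPA6, HSPA8, HSPA1A, HSPA1B, HSPA1L and HSPA4L. It is held by 11.6% of 35116 human promoter windows of that length. A repeat of 3 units, GAANNTTCNNGAA or TTCNNGAANNTTC, which contains the shorter ones, was present for HSPA6 (once) and HSPA8 (in 2 places), against 0.441% of all promoter windows. The windows of HSPH1, HSPA4 and HSPA2 held no such letters. HSPA1L and HSPA1A are divergent neighbours 259 bases apart, and the match counted for HSPA1L is the one printed for HSPA1A.

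Stretches that hold the matches of HSPA6 nearest the start, of HSPA1A and HSPA1B and of HSPA8 are given 5′ to 3′ on the gene's strand, with the GAA and TTC units of the matches in capitals. A further match of HSPA6 (bases -180 to -173) and that of HSPA4L (bases -170 to -163) are not printed. The 3 inducible genes are shown from base -120 to base -1 relative to the start, at chr1:161494210-161494329 (HSPA6), chr6:31783200-31783319 (HSPA1A) and chr6:31795395-31795514 (HSPA1B), all on the plus strand of GRCh37. For HSPA8, 29 bases around each of the longer repeats are shown, at chr11:122932879-122932907 and chr11:122933054-122933082 on the minus strand, and alternative HSPA8 transcripts overlap that window.
HSPA6: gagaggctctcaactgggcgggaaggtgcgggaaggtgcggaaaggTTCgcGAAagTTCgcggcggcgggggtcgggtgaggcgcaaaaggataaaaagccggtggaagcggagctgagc
HSPA1A: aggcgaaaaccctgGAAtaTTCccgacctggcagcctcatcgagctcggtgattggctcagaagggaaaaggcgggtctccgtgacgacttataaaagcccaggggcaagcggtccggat
HSPA1B: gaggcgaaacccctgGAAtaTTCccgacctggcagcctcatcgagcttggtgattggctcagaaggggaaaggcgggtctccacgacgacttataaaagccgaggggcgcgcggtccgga
HSPA8, from base -63 to base -35: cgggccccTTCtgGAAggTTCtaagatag
HSPA8, from base -238 to base -210: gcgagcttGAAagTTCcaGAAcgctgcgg

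The HSPA1A and HSPA1B stretches, shifted by 1 base, differed at 8 of 119 positions. A match of letters in a window is a description and not a binding site measured here.

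HSPA6 lies on chromosome 1 from 161494330 to 161496684 (plus strand, GRCh37) and has a single exon, overlapped on the same strand by an annotated lncRNA. The UT cultures of MM1S had 19, 20 and 18 reads on it (passages 16, 22 and 23), and the WA cultures had 23358, 5927 and 33799. In MM1R the UT cultures had 21, 33 and 23 reads (passages 4, 6 and 7) and the WA cultures 34666, 32834 and 89911. The lowest WA culture, MM1S of passage 22, lay far above the highest UT culture, and MM1R of passage 7 stood above the other 5 WA cultures. Its level was 0.970 ± 0.070 CPM in UT and 1141 ± 771 CPM in WA for MM1S, and 1.41 ± 0.364 and 3052 ± 2089 CPM for MM1R (SD, n = 3). The fitted log2 fold change reached 10.19 in MM1S (SE 0.78, adjusted p = 4.8e-06) and 11.07 in MM1R (SE 0.79, adjusted p = 2.4e-06). Tests are by the quasi-likelihood method of edgeR and adjusted after Benjamini and Hochberg over the 14085 tested rows, here and below unless another tool is named. HSPA6 ranked first of these rows by log2 fold change in both lines.

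HSPA7, annotated as an unprocessed pseudogene, lies 79396 bases from HSPA6 and shares with it 1057 of its 1878 windows of 50 bases (56.3%). The longest identical run of the transcript pair was 310 bases. In MM1S it had 0, 1 and 0 reads in UT and 217, 59 and 320 in WA, and in MM1R 1, 0 and 0 reads in UT and 295, 321 and 798 in WA. The scaled sums of reads were 631-fold higher with WA in MM1S (95% interval 113 to 24960, counting error only) and 1457-fold higher in MM1R (261 to 57593). HSPA7 held between 0.844% and 0.986% of the reads on both genes in all 6 WA cultures, while HSPA6 itself spanned a 17.3-fold range of CPM in those cultures. Reads from the shared stretches could have been assigned to either gene, and their part in the HSPA7 counts was not tested.

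HSPA1A and HSPA1B encode almost the same protein, the classical inducible HSP70, from adjacent single-exon genes in the class III region of the major histocompatibility complex. They lie on chromosome 6 at 31783320 to 31785723 and 31795515 to 31798031 (plus strand, GRCh37), with 9791 bases between them. Of the 1874 windows of 50 bases inside the 1923 coding bases of HSPA1A, 1760 (93.9%) also occur in HSPA1B, and the longest identical run was 1715 bases. Outside the coding part, 6 of 477 windows of HSPA1A (1.26%) were shared.

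The plain HSPA1A row had no read in any of the 12 libraries, as had HSPA1A_1 and HSPA1A_3. By counting error alone, 0 reads allow a level of up to 0.149 to 0.182 CPM. HSPA1A_2 had at most 1 read, and HSPA1A_4 had no read in UT and 8, 7 and 9 reads in the WA cultures of MM1S and 1, 4 and 7 in those of MM1R. Over the 3 reads taken as the floor of a group, HSPA1A_4 was at least 8.47-fold higher with WA in MM1S and at least 4.12-fold higher in MM1R.

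Nearly all reads of the gene pair stood on copy rows of HSPA1B. The plain HSPA1B row had 0 reads in the UT cultures of MM1S and 10, 10 and 19 in WA, and 1, 0 and 0 against 10, 11 and 11 in MM1R. HSPA1B_2 rose from 80, 98 and 56 reads to 5464, 3142 and 8044 in MM1S and from 66, 66 and 63 to 5775, 6012 and 9803 in MM1R. HSPA1B_1 rose from 29, 21 and 28 to 1984, 1095 and 2920 reads in MM1S and from 18, 36 and 19 to 2038, 2190 and 3416 in MM1R. In each of these copy rows every WA culture lay above every UT culture, with MM1S of passage 22 the lowest of the 6 WA cultures.

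The division among the rows was nearly constant with WA. HSPA1B_2 held 69.0% to 71.1% of the HSPA1A and HSPA1B reads, HSPA1B_1 24.3% to 25.3% and HSPA1B_4 3.71% to 5.83% over the 6 WA cultures. All HSPA1A rows together held 0.012% to 0.181%. In the table, the copy rows stand beside rows of neighbouring class III genes with the same suffix. LSM2, a neighbour that encodes a core splicing protein used by all cells, had 0 to 2 reads in a library over all its 6 rows, and the transfer RNA synthetase gene VARS had 34 to 88 over 7 rows. How reads with several matching positions were counted is not given in the sources used here. The HSPA1A and HSPA1B rows are therefore not ranked by level against other members, sums and shares over the family hold them only as counted, and which of the genes the reads came from cannot be told apart here.

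Summed over the HSPA1A and HSPA1B rows, the level was 5.95 ± 1.39 CPM in UT and 430 ± 198 CPM in WA for MM1S, and 5.21 ± 0.747 and 595 ± 226 CPM for MM1R (SD, n = 3). The summed rows rose by 6.18 on the log2 scale in MM1S (adjusted p = 1.5e-06) and 6.83 in MM1R (adjusted p = 5.4e-07). Taken singly, HSPA1B_2 rose by 6.23 (SE 0.39) in MM1S and 6.85 (SE 0.40) in MM1R on the log2 scale, and HSPA1B_1 by 6.35 (SE 0.42) and 6.77 (SE 0.43). HSPA1B_4 went from 3 to 19 reads in the UT cultures to 164 to 819 in the WA cultures, with fitted values of 4.97 (SE 0.54) and 6.89 (SE 0.61). It passed the filter on low counts only through the WA libraries and so had to differ, and these values are given as a description. The plain HSPA1B row was at least 13.8-fold higher with WA in MM1S and 33.0-fold higher in MM1R (95% interval 5.51 to 1343, counting error only). Such intervals and floors leave out the spread between cultures, and no molecular identifiers were counted.

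**Figure D1:**
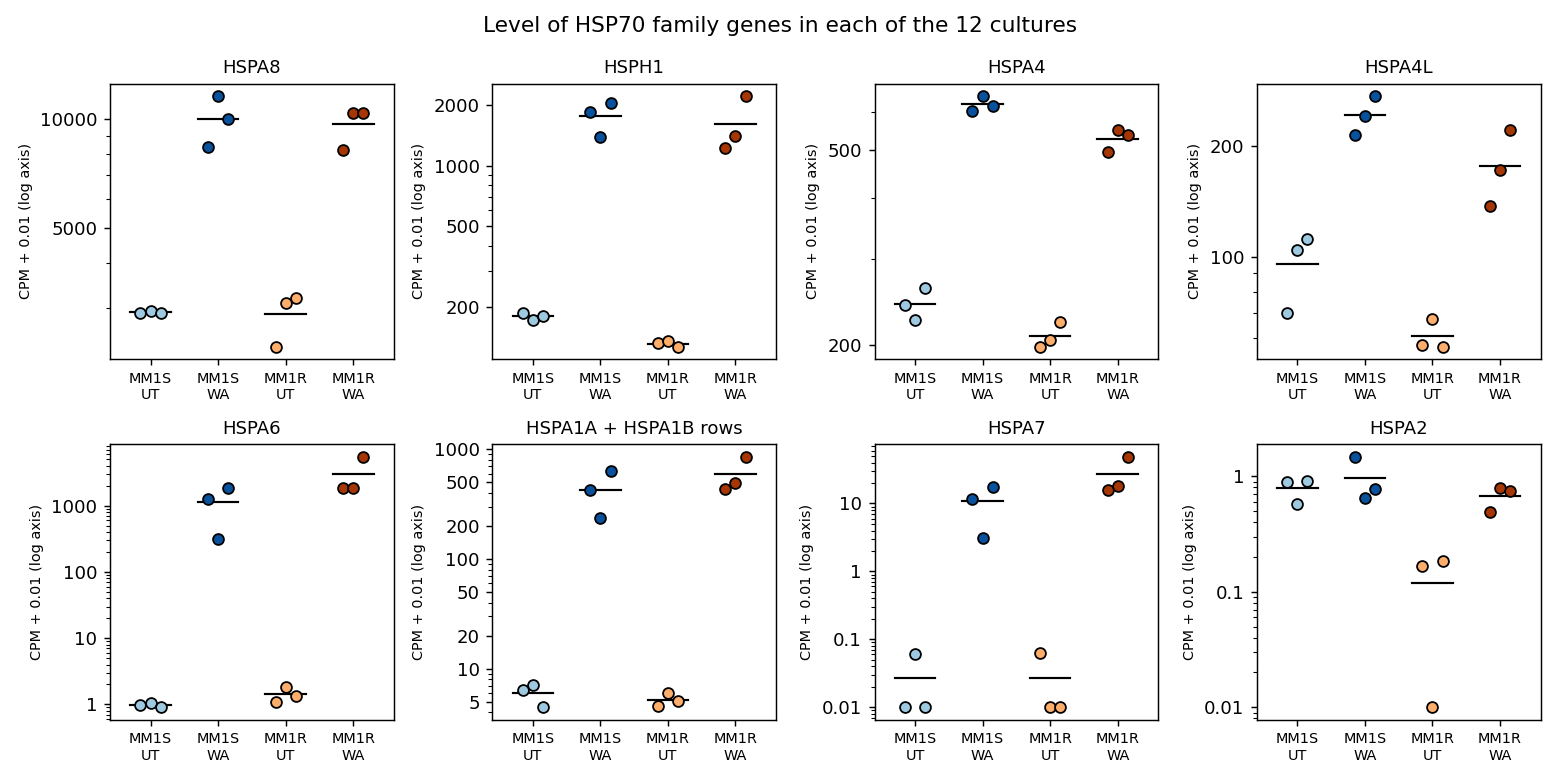
Level of 8 measures of the HSP70 family in the 12 cultures, as CPM plus 0.01 on a log axis. Each point is 1 culture, in order of passage number within a group, and the bar is the mean of 3 cultures. With WA all cultures lay above all UT cultures for HSPA8, HSPH1, HSPA4, HSPA4L, HSPA6, HSPA7 and the summed HSPA1A and HSPA1B rows, whereas HSPA2 overlapped between UT and WA in MM1S. HSPA7 passed the filter on low counts only through the WA libraries and so had to differ. The share of all tested rows without such overlap was not counted.

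HSPA8, the constitutive HSC70 that folds new proteins and uncoats clathrin vesicles, lies on the minus strand of chromosome 11 from 122928197 to 122933938 (GRCh37) with 9 exons in its canonical transcript. It had the most reads of the member rows in each of the 12 libraries, where the HSPA1A and HSPA1B rows are limited as described above. MM1S had 55958, 56689 and 58424 reads in UT and 155280, 217427 and 184138 in WA. MM1R had 44975, 56321 and 54923 reads in UT and 154391, 185289 and 171048 in WA. The groups did not overlap, and the order of the WA cultures differed from that of the inducible genes, since MM1S of passage 22 was here the highest of the 6. HSPA8 rose by 1.78 on the log2 scale in MM1S (SE 0.16, adjusted p = 1.4e-05) and 1.75 in MM1R (SE 0.16, adjusted p = 1.8e-05). Of its windows of 50 bases, 16.8% occur in other annotated genes, among them processed pseudogenes, and 3 snoRNA genes lie in its introns.

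The 3 HSP110 genes, which encode exchange factors of HSP70 that can also hold unfolded protein, rose in both lines but by unequal amounts. HSPH1 (HSP105, chromosome 13, 31709110 to 31736525, minus strand, 18 exons) had 3590, 3312 and 3599 reads in UT and 34199, 26068 and 37299 in WA for MM1S. In MM1R it had 2538, 2457 and 2175 reads in UT and 22970, 24840 and 36343 in WA. Its log2 fold change was 3.30 in MM1S (SE 0.21, adjusted p = 1.5e-06) and 3.62 in MM1R (SE 0.21, adjusted p = 5.4e-07), and it ranked first by p in MM1S and next to first in MM1R.

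HSPA4 (APG-2, chromosome 5, 132387705 to 132442141, plus strand, 19 exons) rose about as far as HSPA4L but with less spread. It had 4675, 4367 and 5269 reads in UT and 11126, 12102 and 11289 in WA for MM1S, and 3823, 3745 and 3834 against 9311, 9771 and 8848 for MM1R. Its log2 fold change was 1.35 in MM1S (SE 0.10, adjusted p = 4.8e-06) and 1.34 in MM1R (SE 0.10, adjusted p = 3.7e-06). HSPA4L (APG-1, chromosome 4, 128702976 to 128761888, plus strand, 19 exons) had 1359, 2022 and 2247 reads in UT and 3965, 4544 and 5021 in WA for MM1S. For MM1R it had 1104, 1235 and 976 reads in UT and 2577, 3057 and 3652 in WA. It rose by 1.35 in MM1S (SE 0.19, adjusted p = 0.00055) and by 1.54 in MM1R (SE 0.19, adjusted p = 0.00020) on the log2 scale. HSPA4 and HSPH1 share no window of 50 bases with another gene.

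HSPA2, a member best known from the testis, where it is needed for sperm formation, was near the limit of counting. MM1S had 17, 11 and 18 reads in UT and 27, 12 and 14 in WA, so that the groups overlapped. MM1R had 3, 0 and 3 reads in UT and 9, 14 and 12 in WA, which did not overlap. On the log2 scale it differed by 0.29 in MM1S (95% interval -0.71 to 1.28, adjusted p = 0.77) and 2.52 in MM1R (SE 0.65, adjusted p = 0.020). The call in MM1R rested on single libraries, since the adjusted p was 0.069, 0.056 and 0.057 without UT of passage 6, WA of passage 6 and WA of passage 7. HSPA2 overlaps HSPA2-AS1 on the opposite strand over 4464 bases, and the strand setting of the counting is not given in the sources used here, so that reads of the pair cannot be told apart. HSPA1L, which is also expressed mainly in the testis, had no read on its plain row. HSPA1L_1 had at most 1 read in UT, 6, 1 and 3 in WA for MM1S, and 1, 7 and 11 for MM1R, and its other copy rows had none.

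Of the 10 members, 8 passed the filter on low counts (HSPA1A and HSPA1L did not), and 2 of these, HSPA7 and HSPA1B, passed it only through the WA libraries, so that they had to differ. HSPA6, HSPA8, HSPH1, HSPA4 and HSPA4L, the 5 members with at least 10 reads in every library, were called higher in both lines also when only such rows were tested. Of the 11805 rows tested then, 16.0% were called in MM1R and 12.3% in MM1S (either direction). In MM1R, 8 members were called higher with WA at an adjusted p under 0.05 in the reported fit, where 7.55% of all 14085 tested rows were called higher and 6.46% lower. In MM1S, 7 members were called higher, where 6.25% of all tested rows were called higher and 4.23% lower. No member was called lower in either line. Without HSPA7 and HSPA1B, the median log2 fold change of the other 6 tested members was 2.14 in MM1R and 1.57 in MM1S, and that of all tested rows was 0.01 in both. With passage number as a replicate block, 8 members in MM1R and 7 in MM1S were called, but the background rose from 1973 to 4094 rows in MM1R and from 1476 to 3399 in MM1S (either direction). It fell to 950 rows in MM1R without UT of passage 6, where 7 members were called, and to 726 in MM1S without UT of passage 23, where 7 were called.

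**Figure D2:**
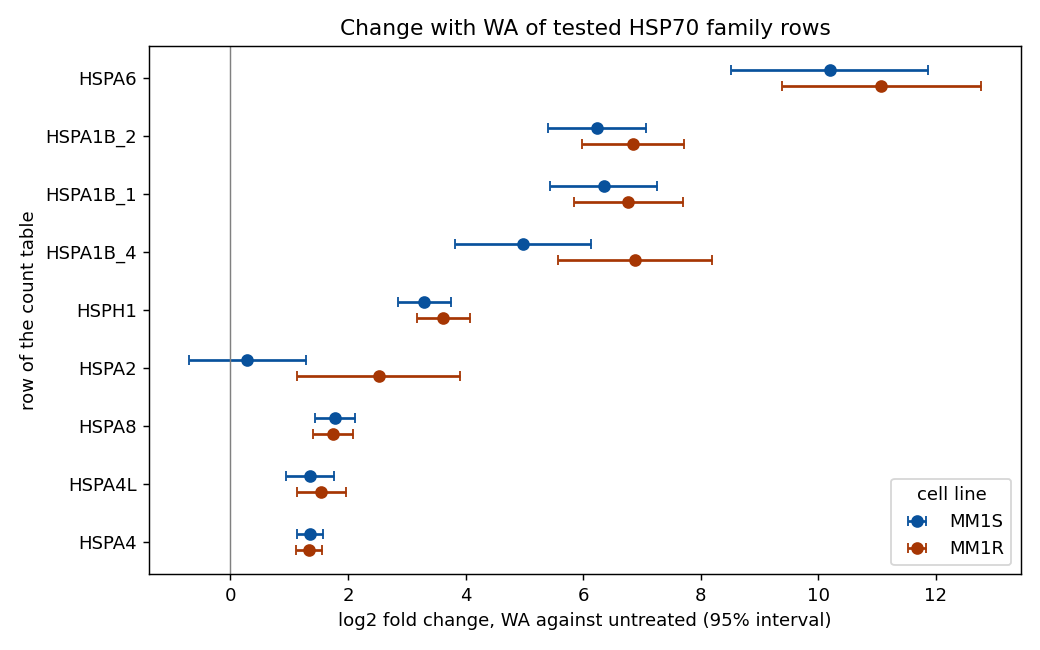
Log2 fold change of WA against UT for 9 rows of the HSP70 family in MM1S and MM1R, with 95% intervals from edgeR (n = 3 cultures per group). HSPA6 stands at 10.19 and 11.07, the HSPA1B copy rows between 4.97 and 6.89, and HSPA8, HSPA4 and HSPA4L between 1.34 and 1.78, and the interval of HSPA2 in MM1S includes 0. HSPA7 and the plain HSPA1B row, with at most 1 read in a UT culture, are not drawn, and HSPA1B_4 is drawn although it passed the filter only through the WA libraries.

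The unequal rise changed the make-up of the family's counted reads, in which reads of HSPA1A and HSPA1B may be incomplete. In UT, HSPA8 held 83.9% to 88.6% of the family's reads, HSPA4 5.86% to 7.56%, HSPH1 3.51% to 5.46% and HSPA6 0.026% to 0.052%. With WA, HSPA8 held 52.7% to 80.4%, HSPH1 9.38% to 14.5% and HSPA6 2.19% to 27.7%. Both ends of the HSPA6 range were cultures already singled out, MM1S of passage 22 at the low end and MM1R of passage 7 at the high end. The share of HSPA4 was 2.73% to 4.71% with WA, below its UT range although its level rose.

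**Figure D3:**
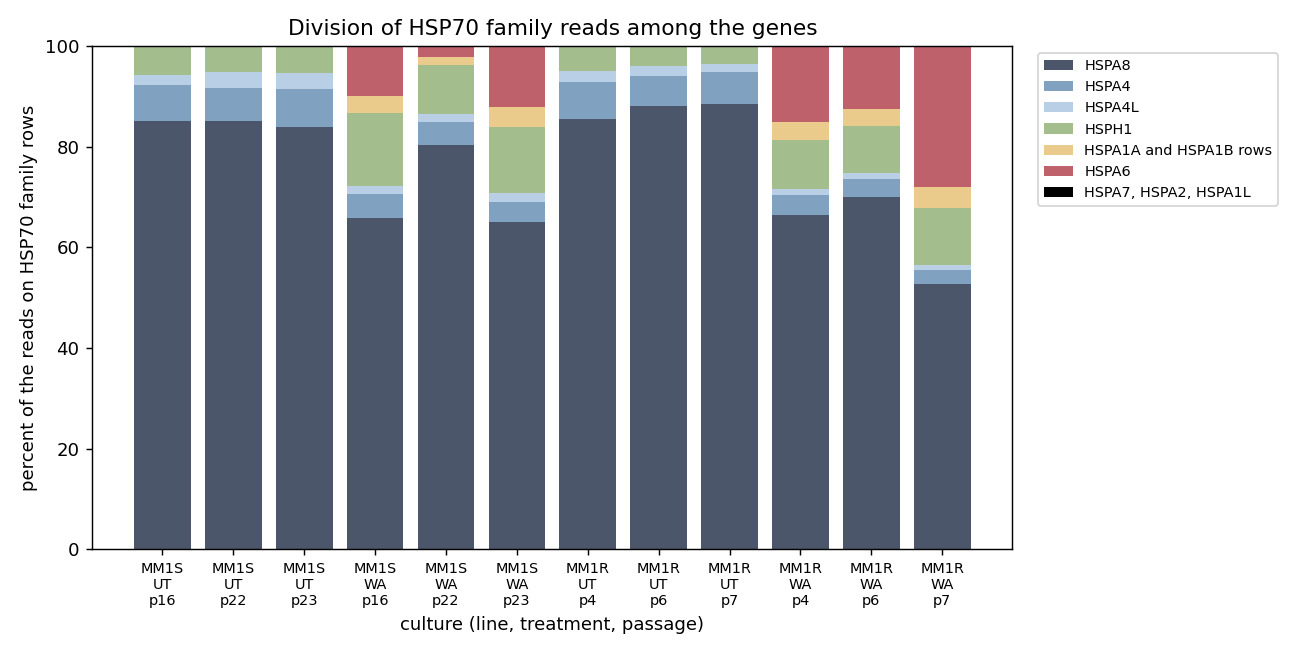
Percent of all reads on HSP70 family rows that fell on each gene, 1 bar per culture (UT, untreated; p, passage number). HSPA8 takes 83.9% to 88.6% of each UT bar and 52.7% to 80.4% of each WA bar, and HSPA6 takes 2.19% to 27.7% of the WA bars.

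To compare levels between genes, CPM were divided by the length of the canonical transcript in kilobases. In UT cultures of MM1S the order by mean level was HSPA8 (1285 CPM per kb), HSPA4 (50.9), HSPH1 (34.0), HSPA4L (6.63 to 10.5), HSPA6 (0.412) and HSPA2 (0.313), with no overlap of cultures between neighbours. In UT cultures of MM1R the order was HSPA8 (1270 CPM per kb), HSPA4 (43.8), HSPH1 (25.0), HSPA4L (5.72), HSPA6 (0.600) and HSPA2 (0.044), again without overlap. With WA, HSPA6 stood behind HSPA8 (4423 CPM per kb in MM1S, 4275 in MM1R) at 485 CPM per kb in MM1S and 1296 in MM1R. HSPH1 reached 335 CPM per kb in MM1S and 307 in MM1R, above HSPA4 (130 and 111) in both. HSPA6 and HSPH1 overlapped between cultures with WA in MM1S (134 to 783 against 265 to 388 CPM per kb), but not in MM1R (784 to 2320 against 233 to 421). These levels assume the canonical transcript, which the cells may not use alone. Of the 50-base windows of HSPA6, 45.8% also occur in HSPA7, and an annotated lncRNA overlaps HSPA6 on the same strand over 2355 bases. How such reads were counted is not given, and the place of HSPA6 in these orders holds only as counted.

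Cultures of the same passage number were compared in pairs, as log2(CPM + 0.5) of WA minus UT. HSPA6 rose by 9.74, 7.69 and 10.37 in passages 16, 22 and 23 of MM1S and by 10.18, 9.64 and 11.54 in passages 4, 6 and 7 of MM1R. The summed HSPA1A and HSPA1B rows rose by 5.96, 4.95 and 7.00 in MM1S and by 6.44, 6.23 and 7.28 in MM1R. HSPH1 rose by 3.31, 3.02 and 3.50 in MM1S and by 3.21, 3.37 and 4.12 in MM1R. The pair of passage 22 was thus the lowest of the 6 and that of MM1R passage 7 the highest for all of these genes. HSPA8 rose by 1.54, 1.99 and 1.79 in MM1S and by 1.81, 1.75 and 1.70 in MM1R, so that the pair of passage 22 was the highest. HSPA4 rose by 1.31, 1.52 and 1.23 in MM1S and by 1.32, 1.42 and 1.27 in MM1R, again highest in passage 22. With 6 pairs from 2 lines, these orders are given as a description. Highest over lowest CPM among the 6 WA cultures was 17.3 for HSPA6, 3.62 for the HSPA1A and HSPA1B rows, 1.80 for HSPH1, 1.41 for HSPA8 and 1.30 for HSPA4.

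**Figure D4:**
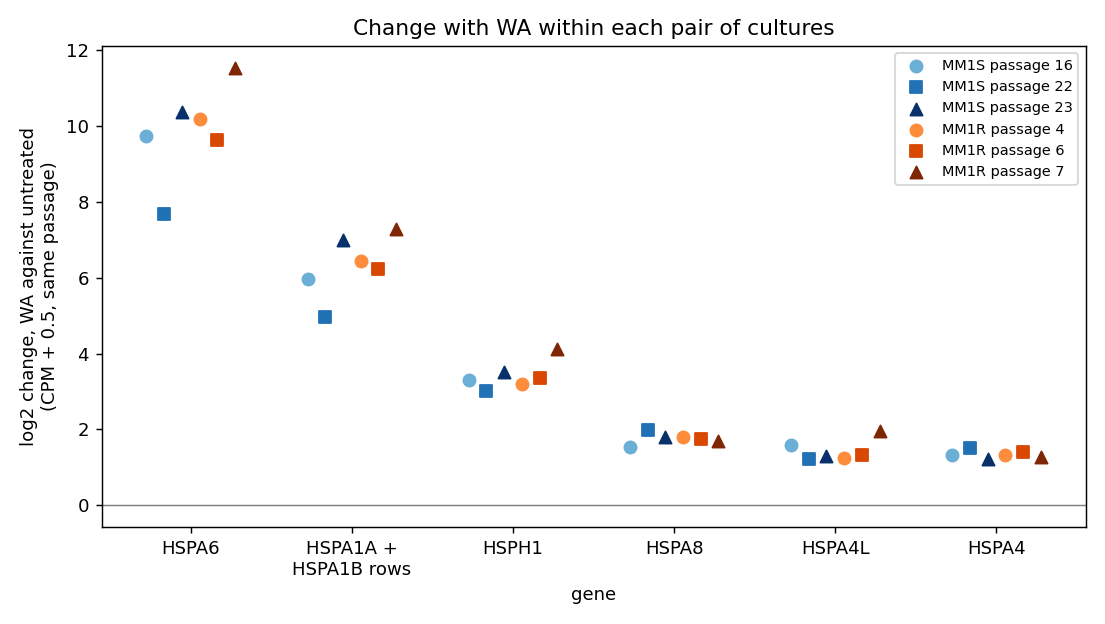
Log2 change of WA against UT within each pair of cultures of the same passage, on CPM plus 0.5, for 6 measures of the HSP70 family. MM1S passage 22 (square, blue) is the lowest of 6 for HSPA6 at 7.69 and the highest for HSPA8 at 1.99, and all 36 changes are above 0. How many of all tested rows rose in every pair was not counted.

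The response to WA was then compared between the GC-sensitive and the GC-resistant line. The difference in the effect of WA (MM1R minus MM1S, as an interaction) was called for 0 members and for 0% of all tested rows, and DESeq2 called 0 members. An unadjusted p under 0.05 was reached by 1 member (HSPA2) in edgeR, where 0.689% of all tested rows reached it. That share is under the one this limit gives in the absence of any effect. The lack of calls therefore does not show that the lines respond alike. For HSPA8 the difference was -0.03 on the log2 scale (95% interval -0.50 to 0.43), for HSPA4 -0.02 (-0.32 to 0.28), for HSPA4L 0.19 (-0.38 to 0.76) and for HSPH1 0.32 (-0.26 to 0.89). The interval was wide for HSPA6 (0.88, from -1.35 to 3.11), so that differences of either direction within it are not excluded with 3 cultures per group. HSPA2 differed by 2.23 (0.50 to 3.97, unadjusted p = 0.015, adjusted p = 1). The copy row HSPA1B_4 differed by 1.91 (-0.09 to 3.92, adjusted p = 1), and only with no filter on low counts did it pass (adjusted p = 0.040).

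Between the untreated lines no member passed the limits used for this comparison, an adjusted p under 0.01 and a log2 fold change of at least 1 in size, which 1.48% of the tested rows passed as higher in MM1R and 1.49% as lower. An unadjusted p under 0.05 was reached by 4 members in edgeR, where 25.9% of all tested rows reached it, and DESeq2 called 1, HSPA2, among 571 of 14077 rows. HSPA2 had fewer reads in all 3 UT cultures of MM1R (0 to 3 reads) than in those of MM1S (11 to 18 reads), at a log2 value of -2.76 (SE 0.63, adjusted p = 0.012 by edgeR and 0.0042 by DESeq2). The value of HSPA4L was -0.65 (SE 0.19, adjusted p = 0.039), with UT cultures at 56.9 to 67.7 CPM in MM1R and 70.3 to 112 CPM in MM1S. HSPH1 stood at 131 ± 4.08 CPM in MM1R and 179 ± 7.43 CPM in MM1S (SD, n = 3), a log2 fold change of -0.44 (adjusted p = 0.16). For HSPA8 the value was -0.02 (95% interval -0.35 to 0.31).

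With WA, again no member passed these limits between the lines, which 1.63% of the tested rows passed as higher in MM1R and 1.41% as lower. An unadjusted p under 0.05 was reached by 4 members in edgeR, where 28.0% of all tested rows reached it, and DESeq2 called 0. HSPA6 was at 1847, 1846 and 5465 CPM in MM1R and at 1264, 316 and 1843 CPM in MM1S, so that the cultures met without overlapping. The log2 difference was 1.42 (SE 0.50, adjusted p = 0.080), and it was 0.97 without WA of MM1S passage 22 and 0.72 without WA of MM1R passage 7. The values of HSPA4L and HSPA4 were -0.46 (adjusted p = 0.13) and -0.23 (adjusted p = 0.14), and that of HSPA8 was -0.05 (95% interval -0.38 to 0.28). These comparisons share cultures with those of WA and are not independent of them.

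The partners of HSP70 were taken from lists chosen by role. Of 10 J-domain genes, 8 were called higher with WA in MM1S, DNAJA4 among them, and 7 in MM1R, and none was called lower. Of all tested rows, 6.25% in MM1S and 7.55% in MM1R were called higher, and 4.23% and 6.46% lower. These shares also apply to the lists below. DNAJA1, the major type A co-chaperone of the cytosol, rose by 1.88 in MM1S and 2.02 in MM1R on the log2 scale. DNAJB2 rose by 2.44 and 2.33, and DNAJB6, a suppressor of protein aggregation, by 1.33 and 1.44. The J-domain gene called in MM1S alone was DNAJA4, singled out after its values were seen, with 5.44 to 19.6 CPM in WA against 0.258 to 0.362 CPM in UT. In MM1R it stayed at or below 0.312 CPM in all 6 cultures, and its difference in effect between the lines was -5.30 on the log2 scale (SE 1.19, unadjusted p = 0.00057, adjusted p = 1). With WA, DNAJA4 was lower in MM1R than in MM1S by a log2 value of -6.42 (SE 0.57, adjusted p = 1.2e-05), and it alone of the listed partner genes was called between the lines. DNAJA4 passed the filter on low counts only through the WA libraries of MM1S and so had to differ there. Its call in MM1S and its differences between the lines are given as a description. Of 6 exchange factors other than HSP110, BAG3 alone was called, with 4.55 in MM1S and 5.21 in MM1R. BAG3 links HSP70 clients to autophagy. BAG2 (0.41 and 0.50) and BAG5 (0.16 in both) were not called in either line.

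Of 5 genes for adaptors, HSP90 and the client ligase, 4 were called higher and 1 lower in each line. HSP90AA1, the inducible HSP90 that takes over clients from HSP70, rose by 3.51 in MM1S and 3.69 in MM1R. HSP90AB1, its constitutive counterpart, rose by 1.47 and 1.45, and ST13 (HIP), which stabilises client-bound HSP70, by 1.13 and 1.01. The one that fell was STUB1 (CHIP), the ubiquitin ligase of chaperone-bound clients, at -0.41 in MM1S (adjusted p = 0.044) and -0.38 in MM1R (adjusted p = 0.0495).

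Of 7 members of the superfamily that work outside this cytosolic group, 6 were tested, none was called in MM1S, and HSPA13, a microsomal member, was called higher in MM1R (log2 fold change 0.72, adjusted p = 0.032), its value in MM1S being 0.53 (adjusted p = 0.12) and the difference between the lines 0.19 (SE 0.29, unadjusted p = 0.52). HSPA5 (BiP), the HSP70 of the endoplasmic reticulum, had a log2 fold change of 0.18 in MM1S and 0.14 in MM1R, and HSPA14 of the ribosome had -0.15 and -0.21, none of them called. Of 4 genes for heat shock factors and their regulator HSBP1, none was called in MM1S. In MM1R, HSF2 fell by 0.46 on the log2 scale (adjusted p = 0.024), and its value in MM1S was -0.24 (adjusted p = 0.24). HSBP1 was at 0.19 in MM1S and 0.35 in MM1R and HSF4 at 0.40 and 0.37, not called.

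The genes whose level over the 12 libraries was most like the summed reads of the family, among 12312 rows with a mean of at least 1 CPM, were HSP90AA1 (Pearson's r of log2 CPM 0.996), DNAJA1 (0.994), GABPB1 (0.993), EFCAB7 (0.990) and DNAJB1 (0.990). The UT and the WA libraries form 2 separate clusters in this measure, so that r mainly reflects the step between them, and it is given as a description. HSP90AA1 went from 495 to 808 CPM over the UT cultures to 6946 to 10990 CPM with WA. DNAJB1, the partner that most often works with inducible HSP70, went from 142 to 188 CPM to 2673 to 11606 CPM, with MM1S of passage 22 again the lowest and MM1R of passage 7 the highest of the WA cultures. GABPB1, a subunit of a transcription factor of mitochondrial genes, went from 45.2 to 58.0 CPM to 91.7 to 125 CPM.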

How the data were processed

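RNA of 12 cultures was sequenced. Per the labels and the paper's methods, the authors mapped reads with STAR (2.7.3a in the submitters' processing notes, genome hg19) and deposited raw counts of reads per gene, without normalization, for 43735 rows, of which 26497 had a read. Annotation, strand setting and the treatment of reads with several positions are not given in the sources used here. A further deposited table of size-factor normalized values was not used. Members, lists and tests were chosen with earlier results of these data known. The genes named are the 10 members and their copy rows, up to 3 genes per list with the smallest p in MM1R with WA, and the 5 rows most correlated with the family. STUB1, DNAJA4, LSM2 and VARS were added after their values were seen.

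Counts were tested with the quasi-likelihood test of edgeR 4.0.16 in R 4.3.3, in 1 fit of all 12 libraries, after filterByExpr (minimum count 10) and TMM, with Benjamini-Hochberg adjustment over 14085 rows. SE were taken as the log2 fold change divided by the square root of F. WA effects and their difference between lines were called at an adjusted p of 0.05, line differences at 0.01 and a log2 fold change of 1. Folds against a group with no read use a floor of 3 reads over the group, and folds from 1 to 3 reads carry a 95% interval of counting error. Replicates are cultures of different passage, and nothing in the labels says more of their independence. Same-passage cultures had correlations of deviations of 0.39, 0.18 and 0.22 in MM1R and 0.71, 0.25 and 0.44 in MM1S. Those of unmatched passages ran from -0.34 to 0.11 in MM1R and from -0.59 to 0.37 in MM1S. UT of MM1S passage 22 correlated more with WA of passage 23 (0.31) than with WA of passage 22. Passage numbers, which the labels give, were treated as pairs only in the within-pair changes and in the replicate block. The reported fit had no term for passage. The test was also run on simulated counts with a known change in some rows. The simulated libraries were drawn independently, so that run does not bear on the correlation of same-passage cultures. Alternatives were DESeq2 1.42.0, its size factors, other filters, only the compared libraries, a replicate block, summed copy rows, other limits and each library left out. Gene positions and 50-base windows are from the GENCODE annotation of GRCh37, and promoters from RefSeq.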

Additional observations from a re-analysis of the deposited data

How the results depend on the processing

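No value of a member called in the comparisons changed sign under any alternative run. With WA in MM1R, 8 members were called in the reported analysis, 5 with at least 10 reads in every library, where HSPA7, HSPA1B and HSPA2 are not tested, and 7 or 8 with each library left out. In MM1S it was 7 members, 5 to 7 under the alternatives and 7 with each library left out. Both reported counts include HSPA7 and HSPA1B, which passed the filter only through the WA libraries and so had to differ. The other calls were HSPA6, HSPA8, HSPH1, HSPA4 and HSPA4L in both lines and HSPA2 in MM1R. With passage number as replicate block, edgeR called 8 members in MM1R, 7 in MM1S and 0 for the difference between lines, as without it. With DESeq2 the block left 7 of 7 members with an adjusted p called in MM1R, against 8 of 8 without it, and 6 of 7 in MM1S both with and without it. Over all rows, the 1973 calls in MM1R fell to 950, 1215, 1297 and 1074 without UT of passage 6, UT of passage 7, WA of passage 4 and WA of passage 7, and the 1476 in MM1S to 729, 726, 930 and 816 without UT of passage 22, UT of passage 23, WA of passage 16 and WA of passage 23. Between the untreated lines, where 0 members passed, 1 did with no filter on low counts, 1 with DESeq2 and 0 to 1 with each library left out (HSPA2, adjusted p = 0.0071 by edgeR without WA of MM1S passage 16), and 2 (HSPA2 and HSPA4L) passed an adjusted p of 0.05 with no limit on the fold change. Of all tested rows between the untreated lines, 3.06% passed with no filter and 4.06% with DESeq2. Without WA of MM1S passage 16 it was 3.65%, and with an adjusted p of 0.05 alone 11.9%. Between the lines with WA, 2 members (HSPA6 and HSPA7) passed with no filter on low counts, where 3.09% of all tested rows passed, and 0 otherwise. The cause of these differences was not tested. Of 1027 values of single members and copy rows under an alternative, 1018 kept their side of the limit. Depth limits HSPA2, HSPA7, HSPA1L and the plain HSPA1A and HSPA1B rows, which had under 30 reads in every untreated library. HSPA1B_4 (3 to 19 reads), HSPA6 (18 to 33) and HSPA1B_1 (18 to 36) also had few reads in the untreated libraries.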
